A study of Mus musculus with 151 samples.

Results

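Slc2a1 and 9 enzymes of glycolysis were followed through RNA-seq of ovaries, germ cells and cumulus cells of female mouse offspring that had been conceived naturally (Natural) or by in vitro fertilization (IVF). The genes were chosen by name: the glucose transporter Slc2a1 (GLUT1), the hexokinases Hk1 and Hk2, the phosphofructokinase subunits Pfkl, Pfkm and Pfkp, the aldolase Aldoa, the pyruvate kinase Pkm and the lactate dehydrogenase subunits Ldha and Ldhb. All 10 were found among the 35976 gene names of each of the 7 count tables, and all 10 passed the filter on low counts in each of the 8 model fits. The study had reported Slc2a1 as altered by IVF at every ovary age, from these same ovaries. The ovary tests of Slc2a1 given here are therefore not independent of that report.

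As background, GLUT1 carries glucose across the plasma membrane and hexokinase traps it in the cell as glucose 6-phosphate. Phosphofructokinase makes the committed step of glycolysis, aldolase splits the resulting sugar, and pyruvate kinase yields pyruvate and ATP. Lactate dehydrogenase interconverts pyruvate and lactate, with Ldha-rich tetramers favouring lactate formation and Ldhb-rich tetramers favouring the use of lactate. The fully grown mouse oocyte uses glucose poorly and depends on the cumulus cells around it, which carry out glycolysis and supply it with pyruvate.

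IVF embryos came from oocytes of superovulated CF-1 females and B6/SJL sperm, were cultured to the blastocyst stage and were transferred to pseudopregnant CF-1 females. Natural embryos of the same cross were neither cultured nor transferred, so that fertilization in vitro, culture, transfer and the hormones given to the mother cannot be told apart. Ovaries were sequenced whole at E18.5 (4 Natural and 6 IVF) and in part at 12 weeks (4 and 5) and 39 weeks (5 and 5), and one Natural ovary of the last group is labelled both 39 and 40 weeks. Primordial germ cells (PGCs) were collected at E13.5 in libraries of 100 cells (4 and 5). Mature oocytes were taken one by one from offspring that were themselves superovulated, at 12 weeks (36 and 40) and 39 weeks (9 and 10), and cumulus cells were collected in libraries of 100 cells at 12 weeks (5 and 5). No litter is named in the labels, so p-values measure the spread between libraries, which may in part be technical.

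Library totals ran from 2839020 to 43363800 counts in ovaries, from 4364500 to 8675190 in PGCs, from 2532820 to 6345250 in cumulus cells and from 839781 to 31126400 in single oocytes. The names of the 12-week oocytes gave 5 donor sets in each group, and their counts were summed by set. No label states that these name fields mark a female, so that the n of 5 in the oocyte tests rests on this reading of the names. The cumulus library called Natural replicate 5 has a name that shares its fields with an IVF oocyte set, and leaving it out changed no call of a member. Levels are given as CPM, the counts scaled to a common library size after TMM normalization within each fit, so that a library's value differs a little between fits. In the fit of all ovaries, granulosa and cumulus markers summed to 186 to 4326 CPM and oocyte markers to 25.6 to 782 CPM.

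The genes lie apart in the mouse genome (GRCm38, the coordinates of mm10). Slc2a1 spans chr4:119108711-119137983 on the plus strand, Ldha chr7:46841475-46855627 on the plus strand and Ldhb chr6:142490249-142507957 on the minus strand. Aldoa lies at chr7:126795234-126800751 on the minus strand and Pkm at chr9:59656368-59679375 on the plus strand. Hk1 is at chr10:62268855-62379908 and Hk2 at chr6:82725025-82774454, both on the minus strand. Among the phosphofructokinase subunits, Pfkl is at chr10:77986947-78010083 and Pfkp at chr13:6579768-6648777 on the minus strand, and Pfkm is at chr15:98092589-98132451 on the plus strand. Annotated genes overlap Slc2a1 (Mir1957a), Hk1 (Hk1os), Pfkm (Senp1), Pfkp (Pitrm1) and Aldoa (Fam57b). Mir1957a lies on the same strand as Slc2a1, so that strand does not separate their reads within the shared stretch. The other overlapping genes lie on the strand opposite the member. Where counting does not use strand, their reads cannot be told apart within the shared stretches.

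The 250 bases ahead of a RefSeq start site (GRCm38.p6) are shown for the transporter and for the lactate dehydrogenase pair, the first and the last of the steps followed here. Capitals mark ACGTG, the core of the element that hypoxia-inducible factors bind, or CACGT, its other strand. Where both overlap they spell CACGTG, an E-box.
Slc2a1, chr4:119108495-119108744, plus strand: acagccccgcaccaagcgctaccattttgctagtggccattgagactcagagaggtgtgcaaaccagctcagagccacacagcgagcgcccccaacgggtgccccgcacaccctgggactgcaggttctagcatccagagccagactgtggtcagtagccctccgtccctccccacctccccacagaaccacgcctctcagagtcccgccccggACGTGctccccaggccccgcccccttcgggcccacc
Ldha, first start, chr7:46845554-46845803, plus strand: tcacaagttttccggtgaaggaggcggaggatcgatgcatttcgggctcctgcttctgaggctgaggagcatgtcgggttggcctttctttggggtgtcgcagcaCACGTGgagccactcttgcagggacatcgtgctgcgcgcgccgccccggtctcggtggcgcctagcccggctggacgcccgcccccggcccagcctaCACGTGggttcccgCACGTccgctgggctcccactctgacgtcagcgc
Ldhb, chr6:142507958-142508207, minus strand: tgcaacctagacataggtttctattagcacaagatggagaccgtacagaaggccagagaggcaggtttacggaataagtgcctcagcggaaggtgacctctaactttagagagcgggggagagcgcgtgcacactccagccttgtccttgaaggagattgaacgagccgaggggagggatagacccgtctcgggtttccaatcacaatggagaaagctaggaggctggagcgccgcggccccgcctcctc
The Slc2a1 window held 1 core, the window at the first Ldha start held 5 counted over both strands, including 2 E-boxes, and the Ldhb window held none. The window at the second Ldha start, which is not shown, held no core. A stretch just after the first Ldha start was not found in the GENCODE transcripts of Ldha, and one after the second start was. Across the 10 genes, 8 of 18 windows held the core, but 2 of the 8 are Aldoa windows that overlap by 174 bases and share a single match. Of 32851 mouse windows, 16.6% held it. A match describes the letters only.

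Divided by exon length, the members were ordered differently in each kind of sample. In Natural ovaries at E18.5 Aldoa was highest at 375 ± 13.1 CPM per kb (SD, n = 4), followed by Pkm at 321 ± 30.96, Ldha at 259 ± 64.2 and Ldhb at 146 ± 54.8, with Slc2a1 at 43.3 ± 9.65 and Pfkp last at 5.88 ± 1.93. The SD ranges of Pkm and Ldha overlapped, as did those of Ldha and Ldhb, each pair being neighbours in this order. Natural PGCs were led by Pkm (905 ± 508 CPM per kb, n = 4) and Aldoa (732 ± 341), whose spreads overlapped. Natural 12-week oocytes were led by Ldhb (649.5 ± 104 CPM per kb, n = 5), with Aldoa next at 57.4 ± 16.5 and Slc2a1 at 7.88 ± 1.403. In Natural cumulus cells Aldoa (4109 ± 595 CPM per kb, n = 5) and Ldha (3874 ± 566) stood within each other's spread at the top, Slc2a1 was at 48.7 ± 18.95 and Ldhb at 8.598 ± 2.04. The 10 genes together took 1.99% of all counts in Natural cumulus cells, 0.419% in Natural PGCs, 0.108% in Natural 12-week oocytes and 0.247% to 0.295% in Natural ovaries of the 3 ages.

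At E18.5, Aldoa and Ldha were lower in IVF ovaries, and 9 of the 10 genes had a negative log2 fold change, with a median of -0.46 against 0.00 for all genes tested. By edgeR's quasi-likelihood test at a Benjamini-Hochberg adjusted p below 0.05, 5.43% of 16415 genes were called and 2.75% were called lower, and 7 members against 24.1% of genes had an unadjusted p below 0.05. Aldoa was at 702, 659, 707 and 669 CPM in the Natural ovaries, and the 6 IVF ovaries had a lowest value of 417, a median of 456 and a highest value of 654 CPM. Every IVF ovary lay below every Natural ovary, as was the case for 4.33% of genes. Aldoa fell by 0.50 on the log2 scale (SE 0.12, adjusted p = 0.0354). Ldha was at 533, 446, 635 and 349.7 CPM in Natural ovaries and at 234, 306 and 416 CPM for the lowest, median and highest IVF ovary. The groups overlapped at 1 Natural ovary, and Ldha fell by 0.68 (SE 0.17, adjusted p = 0.0379).

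The other members did not pass. Slc2a1 was at 147, 138, 178 and 102 CPM in Natural ovaries and at 60.8, 85.6 and 142 CPM for the lowest, median and highest IVF ovary (log2 fold change -0.64 ± 0.21 SE, adjusted p = 0.0853). Only the highest IVF value, from replicate 3, exceeded the lowest Natural value. Pkm (-0.45 ± 0.14, adjusted p = 0.0794) and Ldhb (-0.69 ± 0.23, adjusted p = 0.0921) were near the threshold, and Pfkm had the only positive value (0.13 ± 0.11). IVF replicate 3 was the highest of the 6 IVF ovaries for all 10 genes, and without it 7 members were called lower, namely Slc2a1, Hk1, Pfkl, Aldoa, Pkm, Ldha and Ldhb, where 7.41% of all genes were called and 3.91% were lower. In contrast, no member was called when IVF replicate 1, 2, 4, 5 or 6 or Natural replicate 2 or 3 was left out, with adjusted p of up to 0.077 for Aldoa and 0.0969 for Ldha. Ldha alone was called without Natural replicate 4, and Ldhb was called as well without Natural replicate 1. DESeq2 called 5 members lower, adding Slc2a1, Pkm and Ldhb, where it called 11.7% of all genes and 6.04% lower.

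Further genes of glucose metabolism differed in the same ovaries, where 5.43% of all genes were called and 2.75% were lower. Of 15 other glycolytic enzymes, Eno1 (enolase, -0.75 ± 0.19, adjusted p = 0.0379) and Pgk1 (phosphoglycerate kinase, -0.74 ± 0.13, adjusted p = 0.0136) fell, and the list had a median of -0.40. Bsg, the chaperone of the lactate carriers, fell by 0.42 (SE 0.10, adjusted p = 0.0326), the one called of 5 genes of monocarboxylate transport. Mpc2, a subunit of the mitochondrial pyruvate carrier, fell by 0.53 (SE 0.14, adjusted p = 0.044). Pfkfb2, which makes the phosphofructokinase activator fructose 2,6-bisphosphate, rose by 0.66 (SE 0.12, adjusted p = 0.0144). Of 14 regulators of hypoxia responses and glucose uptake, Epas1 (-1.32) and Txnip (-0.58) fell and Hif3a (0.53) rose. None of the hexose transporters and none of the pentose phosphate enzymes tested was called.

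Markers of other cells moved with this comparison, where 5.43% of all genes were called and 2.75% were lower. Of 9 oocyte markers tested, 5 were lower in IVF ovaries, with a summed level of 27.8 to 209 CPM in IVF and 214 to 852 CPM in Natural ovaries and Oosp1 at 0 throughout. Of 6 smooth muscle markers 4 were lower (315 to 407 against 522 to 717 CPM), and 3 of 8 erythroid markers were higher (1623 to 4641 against 605 to 1604 CPM). From bulk RNA alone, fewer cells of a type and less RNA per cell cannot be told apart, and the part of these cell types in the lower Aldoa and Ldha was not tested. In whole E18.5 ovaries stained for a germ cell marker, the study reported no difference in germ cell number between IVF and Natural. That count came from imaging and was not set against these RNA levels here. The methods give E19.5 in one place for the collection of IVF fetuses and E18.5 elsewhere, so that fetal age and conception cannot be told apart.

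**Figure D1:**
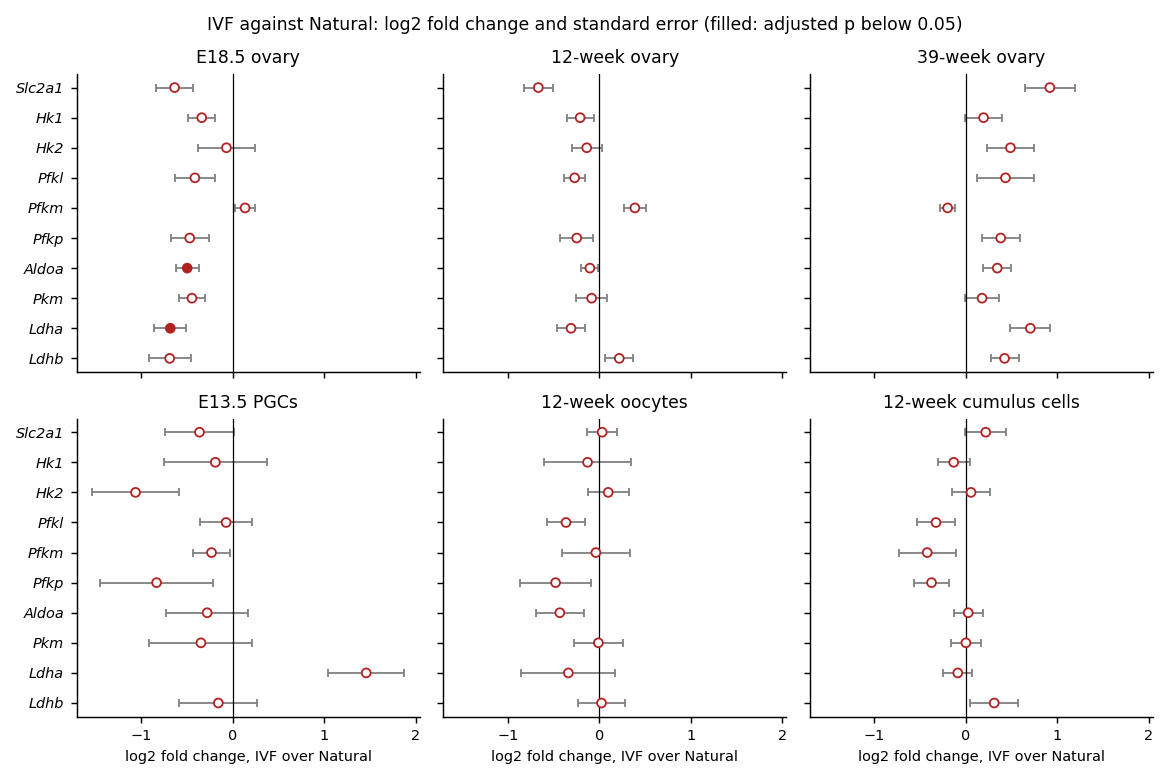
Log2 fold change of IVF over Natural (horizontal axis) for the 10 members in 6 experiments, with standard errors as bars and filled points where the adjusted p was below 0.05. In the E18.5 ovary 9 points lie left of 0 and those of Aldoa and Ldha are filled, in the 39-week ovary 9 lie right of 0 and none is filled, and in PGCs Ldha lies at 1.46.

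In 12-week ovaries no member was called, where 0.00567% of 17628 genes were. With an unadjusted p below 0.05 there were 3 members (Slc2a1, Pfkl and Pfkm), against 14.4% of all genes. Slc2a1 was at 71.9, 60.9, 78.5 and 55.7 CPM in Natural ovaries and at 42.1, 55.9, 33.5, 38.9 and 38.9 CPM in IVF ovaries. The groups overlapped only at the highest IVF and the lowest Natural value, and the log2 fold change was -0.67 ± 0.16 SE (adjusted p = 0.152). Pfkm, the muscle-type phosphofructokinase, was at 64.6, 83.7, 60.5 and 80.6 CPM in Natural and at 104, 90.4, 93.4, 82.5 and 101 CPM in IVF ovaries (0.39 ± 0.12, adjusted p = 0.212). Only the lowest IVF value lay within the Natural range. DESeq2 called Slc2a1 lower (-0.68, adjusted p = 0.00915) and no other member, where it called 3.72% of genes. All 10 markers of oviduct and epithelium had negative values here (median -1.74, none called), and their summed level was 113 to 3231 CPM in IVF and 3650 to 8139 CPM in Natural ovaries, with no overlap. Their part in the values of Slc2a1 was not tested.

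In 39-week ovaries the values of Slc2a1 lay on the other side. Natural ovaries had 24.3, 28.4, 23.7, 27.6 and 20.8 CPM and IVF ovaries had 86.3, 52.3, 34.6, 31.2 and 31.5 CPM. Every IVF ovary was above every Natural ovary, as was the case for 2.27% of genes. The log2 fold change was 0.92 ± 0.27 SE (adjusted p = 0.131 in edgeR and 0.0272 in DESeq2). Ldha was at 179, 204, 173, 163 and 137 CPM in Natural and 441, 200, 246, 200.1 and 307 CPM in IVF ovaries (0.70 ± 0.22, adjusted p = 0.141 in edgeR and 0.0362 in DESeq2), with 1 Natural ovary inside the IVF range. DESeq2 called 7.15% of all genes in this comparison. No member was called by edgeR, where 0.262% of 17186 genes were, and 4 members (Slc2a1, Pfkm, Ldha and Ldhb) had an unadjusted p below 0.05 against 19.2% of genes. Of the 10 members 9 had positive values, with a median of 0.40 against 0.03 for all genes, and Pfkm was negative (-0.20 ± 0.09, adjusted p = 0.24). Of the other pathway genes Pfkfb2 alone was called, and it fell by 0.998 on the log2 scale (adjusted p = 0.0408).

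IVF replicate 1 stood apart among the 39-week ovaries. It held 177 CPM of Hk1 and 384 CPM of Pfkl, against at most 106 and 145 CPM in the other IVF ovaries. Its oviduct and epithelium markers summed to 9758 CPM in the fit of all ovaries, against 90.03 to 224 CPM in the other 4 and 71.8 to 297 CPM in the Natural ovaries. Without it the log2 fold change of Slc2a1 was 0.58 (adjusted p = 0.102) and that of Ldha was 0.48 (adjusted p = 0.128). Hk1 went from 0.19 to -0.05 and Pfkl from 0.43 to -0.04. The part of these markers in the values of the members was not tested.

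Across ages, Slc2a1 declined in Natural ovaries at each step. In a fit of all 29 ovary libraries it went from 148, 126, 165 and 93.5 CPM at E18.5 to 71.5, 60.2, 79.1 and 55.4 CPM at 12 weeks and to 26.5, 31.1, 25.3, 30.3 and 22.7 CPM at 39 weeks. It fell by 1 on the log2 scale from E18.5 to 12 weeks (SE 0.26, adjusted p = 0.00232) and by 1.29 from 12 to 39 weeks (SE 0.24, adjusted p = 0.000915). Calls between ages were common, for 49.7% of 19724 genes at the first step (25.3% higher and 24.3% lower) and 21.6% at the second (10% higher and 11.6% lower), and 2 members rose and 2 fell at the first and 1 rose and 2 fell at the second. Age and count table cannot be told apart.

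At the first step Pfkp, the platelet-type phosphofructokinase, rose most. Its Natural values were 17.6, 21.9, 34.2 and 20.9 CPM at E18.5 and 92.6, 77.2, 96.3 and 58 CPM at 12 weeks, a log2 change of 1.78 ± 0.23 (adjusted p = 6.8e-07). Aldoa rose as well (0.76 ± 0.13, adjusted p = 4.2e-05), and Ldhb fell by 0.61 (SE 0.22, adjusted p = 0.0211). The call of Ldhb was lost without E18.5 Natural replicate 2 or 4 or 12-week Natural replicate 1 or 3, and without the E18.5 Natural replicate 4 the log2 change was -0.34 (adjusted p = 0.193).

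Other genes of the pathway changed at the first step in Natural ovaries, in both directions, where 49.7% of all genes were called. Of 15 other glycolytic enzymes 2 rose and 3 fell, with Aldoc, the brain-type aldolase, at 1.93 and Eno2, the neuronal enolase, at -1.43. Of 6 genes of monocarboxylate transport the chaperone Emb rose (5.72) and Slc16a3 fell (-1.99). Of 14 genes for the entry of pyruvate into mitochondria 7 rose and 2 fell, among them pyruvate carboxylase Pcx (2.38) and the pyruvate dehydrogenase kinases Pdk4 (1.69) and Pdk1 (-1.65). Of 7 pentose phosphate enzymes 4 rose, led by Taldo1 (1.402) and G6pdx (1.28), and 1 fell.

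At the second step Ldha fell in Natural ovaries, from 432, 342, 354 and 252 CPM to 195, 223, 185, 179 and 149.7 CPM (-0.89 ± 0.21, adjusted p = 0.0037). Pfkm rose, from 64.2, 82.8, 60.9 and 80.2 CPM to 132, 115, 111, 116 and 103 CPM (0.68 ± 0.11, adjusted p = 0.000221). Neither gene overlapped between the ages, as was the case for 13.1% of genes that were lower and 10.6% that were higher. Slc2a1, Ldha and Pfkm stayed called when any 1 library was left out. Of 15 other glycolytic enzymes 4 fell, among them Pgk1 (-0.98) and Aldoc (-3.54), where 11.6% of all genes were called lower. Of the hexose transporters Slc2a3 (-1.77) and Slc2a4 (-1.37), the insulin-responsive transporter, fell. Pfkfb3 fell by 0.96 and Pfkfb2 rose by 0.796. All 10 markers of oviduct and epithelium also fell (median -3.96), from sums of 3629 to 8198 CPM at 12 weeks to 71.8 to 297 CPM at 39 weeks, and their part in these changes was not tested.

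IVF ovaries had falling values of Slc2a1 at the first step and overlapping values at the second. Slc2a1 had a lowest value of 55.6, a median of 79.1 and a highest value of 131 CPM at E18.5 and was at 42.1, 55.1, 33.4, 38.2 and 38.2 CPM at 12 weeks (log2 change -1.01 ± 0.23, adjusted p = 0.000458). At 39 weeks it was at 88.5, 56.9, 37.5, 34.3 and 34.5 CPM (0.27 ± 0.23, adjusted p = 0.551). At the first step 59% of genes were called (30.8% higher and 28.2% lower), with Pfkp (2.02 ± 0.20, adjusted p = 3e-09), Aldoa (1.18 ± 0.11, adjusted p = 2.25e-09), Hk1 (0.46 ± 0.16, adjusted p = 0.0167) and Pkm (0.46 ± 0.16, adjusted p = 0.0152) higher. Hk1 lost its call without 12-week IVF replicate 2 and Pkm without 12-week IVF replicate 1. At the second step 6.19% of genes were called and 4.23% were higher, and Aldoa was the one member called, from 1062, 945, 990.4, 968 and 1084 CPM to 1637, 1218, 1520.2, 1251 and 1397 CPM (0.48 ± 0.12, adjusted p = 0.0198). That call was lost without 12-week IVF replicate 3 or 4, and without 12-week IVF replicate 2 Hk1 was called as well.

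**Figure D2:**
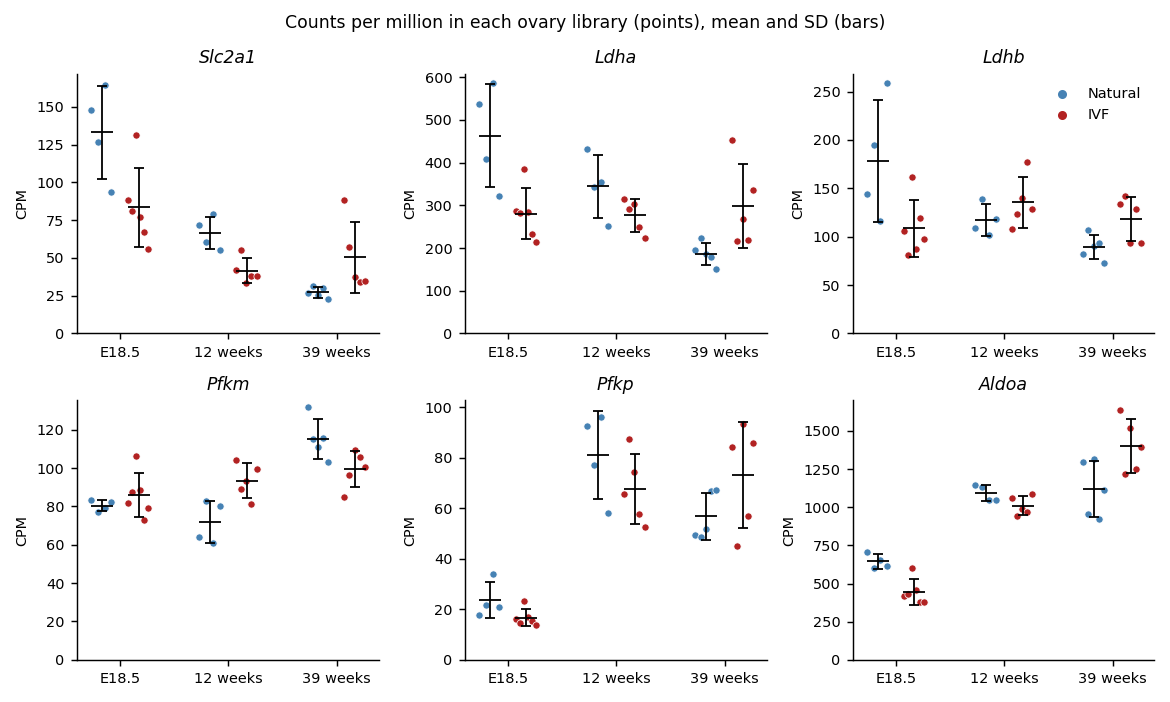
CPM (vertical axes, starting at 0) of 6 members in each of the 29 ovary libraries by age, Natural in blue and IVF in red, with mean and SD as bars. Natural Slc2a1 goes from 93.5 to 165 CPM at E18.5 down to 22.7 to 31.1 CPM at 39 weeks, and at 39 weeks all 5 IVF points lie above the 5 Natural points.

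Whether the effect of IVF differed between ages was tested as an interaction. From 12 to 39 weeks it was positive for Slc2a1 (1.57 ± 0.34 SE, adjusted p = 0.0228) and negative for Pfkm (-0.59 ± 0.15, adjusted p = 0.0349), where 2.71% of 19724 genes were called, 1.96% positive and 0.75% negative. Ldha (0.999 ± 0.28, adjusted p = 0.0523) was just short of the threshold. These calls depended on single libraries. Neither gene was called without 12-week IVF replicate 3 or 12-week Natural replicate 3, and Slc2a1 alone was called without 12-week IVF replicate 1 or 5, 12-week Natural replicate 1, 39-week IVF replicate 1, or 39-week Natural replicate 1 or 4. Ldha was called as well without 12-week Natural replicate 4, 39-week IVF replicate 2, 3 or 4, E18.5 IVF replicate 3 or E18.5 Natural replicate 4. The value of Slc2a1 stayed between 1.27 and 1.69 when any 1 library was left out, with adjusted p between 0.0113 and 0.0528. With only the 12-week and 39-week ovaries in the fit, an alternative chosen after seeing the data, the adjusted p was 0.0709 for Slc2a1 and 0.0798 for Pfkm.

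From E18.5 to 39 weeks the interaction was called for 4 members, all positive, where 7.95% of genes were called and 5.1% were positive. They were Slc2a1 (1.56 ± 0.33, adjusted p = 0.0051), Ldha (1.40 ± 0.28, adjusted p = 0.00303), Ldhb (1.12 ± 0.27, adjusted p = 0.0134) and Aldoa (0.86 ± 0.17, adjusted p = 0.00311). All 4 stayed called when any 1 library was left out, 7 members were called without E18.5 IVF replicate 3 (8.99% of all genes), and Pfkp was called as well without 39-week IVF replicate 2 or E18.5 Natural replicate 1. From E18.5 to 12 weeks neither edgeR nor DESeq2 called a member, where 0.314% of genes were. The 3 interactions share libraries and are not independent.

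Genes around the members moved with the interaction from E18.5 to 39 weeks. Of 15 other glycolytic enzymes 7 were called positive (list median 0.88), where 5.1% of all genes were. Among them were Eno1 (1.48), Pgk1 (1.26) and Gpi1 (glucose 6-phosphate isomerase, 1.002). Of 6 genes of monocarboxylate transport, the lactate carriers Slc16a3 (1.66) and Slc16a1 (0.92) and their chaperone Bsg (0.702) were positive. Pgls (0.81) and G6pdx (0.68) of the pentose phosphate pathway and Myc (1.43) were positive, and Pfkfb2 (-1.64) and Gapdhs (-1.36) were negative. From 12 to 39 weeks the interaction was positive for Aldoc (4.08) and Pgk1 (1.08) and negative for Pfkfb2 (-1.25), where 1.96% of all genes were called positive and 0.75% negative. Oocyte markers moved with the interaction from E18.5 to 39 weeks (6 of 10 positive, median 2.27).

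Oviduct and epithelium markers moved with the same interactions. From 12 to 39 weeks 6 of the 10 were called positive (median 4.76), and from E18.5 to 39 weeks 3 were (median 3.19), against 1.96% and 5.1% of all genes. Their summed level was 6678, 3727, 8198 and 3629 CPM in the 12-week Natural ovaries and 2893, 3185, 113, 958 and 734 CPM in the 12-week IVF ovaries. At 39 weeks it was 297, 163, 109, 71.8 and 98.6 CPM in Natural and 9758, 90.03, 139, 224 and 153 CPM in IVF ovaries. Across the 29 libraries, with the mean of each age subtracted, log2 CPM of Slc2a1 had a Pearson r of 0.68 with this list, 0.60 with smooth muscle and -0.65 with luteal and theca markers, as descriptions over libraries that share age and conception. Without 39-week IVF replicate 1, the ovary with the highest marker sum, the interaction of Slc2a1 from 12 to 39 weeks was 1.27 (adjusted p = 0.0311). The 12-week ovaries, with the marker sums given above, stayed in that fit. The part of these markers in the interactions was not tested.

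**Figure D3:**
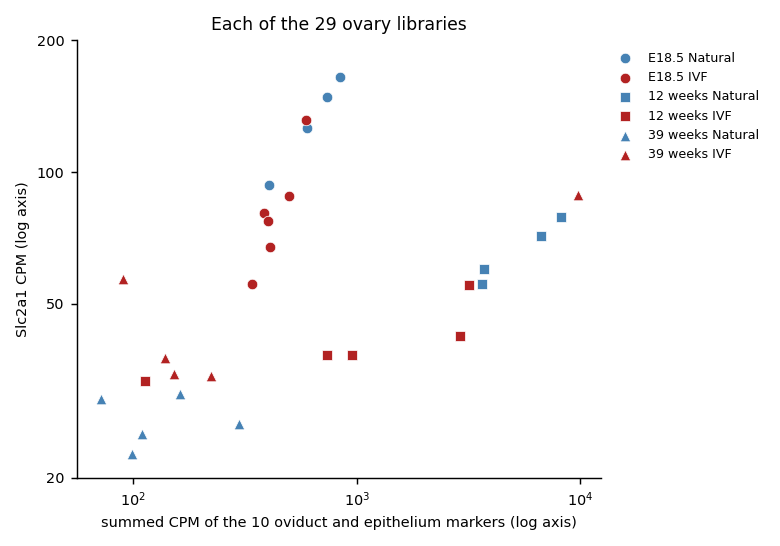
Slc2a1 CPM (vertical, log axis) against the summed CPM of 10 oviduct and epithelium markers (horizontal, log axis), 1 point per ovary library. The 39-week IVF ovary with 88.5 CPM of Slc2a1 has the highest marker sum of all 29, 9758 CPM, and the other 39-week IVF ovaries lie at marker sums of 90.03 to 224 CPM.

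The genes with the profile most like that of Slc2a1 over the 29 ovaries, by Pearson r of log2 CPM with age means subtracted, were Tpi1 (0.86), Fuom (0.86), Hsp90ab1 (0.85), Pdlim1 (0.85) and Nxn (0.85) of 19723 genes. Only age means were subtracted, so differences between IVF and Natural remain in these r values. Like Slc2a1, each of these genes had a negative IVF log2 fold change at E18.5 and 12 weeks and a positive one at 39 weeks. The part of conception and of cell composition in r was not tested. Tpi1 encodes triosephosphate isomerase, itself a glycolytic enzyme. Among the members, Ldha was nearest at rank 9 (0.84), followed by Pfkl at rank 39 (0.79) and Hk1 at rank 79 (0.76), and Pfkm was the single member with a negative value (-0.48).

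In PGCs at E13.5 neither edgeR nor DESeq2 called a member, and edgeR called 0% of 12763 genes. An unadjusted p below 0.05 was found for 2.73% of genes (349) and for 2 members. Ldha was at 153, 212, 152 and 128 CPM in Natural and 832, 167, 252, 520.4 and 440.4 CPM in IVF libraries. Of the IVF libraries 1 lay within the Natural range, and the log2 fold change was 1.46 ± 0.41 SE (unadjusted p = 0.00409, adjusted p = 1 in edgeR). Hk2 was at 15.3, 17.1, 24.99 and 48.7 CPM in Natural and 11.9, 10.1, 16.8, 20.9 and 3.72 CPM in IVF libraries (-1.06 ± 0.47, adjusted p = 1). The spread within groups was wide for Pkm, with 3669, 575, 2917 and 2244 CPM in Natural libraries, and for Aldoa, with 1913, 456, 1424 and 1545 CPM. Natural replicate 2 was the lowest of its group for both. The 10 PGC markers summed to 4310.4 to 8349.9 CPM in IVF and 3784 to 9972 CPM in Natural libraries.

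In 12-week oocytes, compared as 5 donor sets a group, no member was called, where 0.0277% of 14444 genes were, and no member had an unadjusted p below 0.05, where 6.67% of genes had. DESeq2 called no member either. The members had a median of -0.08 against 0.02 for all genes. Slc2a1 was at 20.5, 22.1, 31.8, 28.2 and 25.8 CPM in Natural and 27.1, 29.7, 26.3, 20.5 and 27.4 CPM in IVF sets, which overlapped. Ldhb, the highest member per length, was at 1042, 701, 910.2, 751 and 830.2 CPM in Natural and 527, 842, 524, 912 and 1495 CPM in IVF sets. Single oocytes spread more widely: Ldhb had a lowest value of 33.2, a median of 822 and a highest value of 1262 CPM in 36 Natural oocytes and 157, 805 and 2455 CPM in 40 IVF oocytes. Hk1 was at 0 in 21 Natural and 19 IVF oocytes, and Slc2a1 was at 0 in none.

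The 39-week oocytes have no donor in their labels, so each group counts as 1 sample and no test was made. Pfkp was the single member past a ratio of 2 between the mean CPM of IVF and Natural oocytes, at 0.378, where 9.19% of 7229 genes were past it and 6.47% were lower. It had a lowest value of 1.99, a median of 5.51 and a highest value of 51.9 CPM in 9 Natural oocytes and 0, 2.998 and 12.4 CPM in 10 IVF oocytes. The ratio rested on the highest Natural oocyte, and it was 0.719 without that oocyte, an alternative chosen after seeing the data. Summed over all oocytes it was 16.9 CPM (16.1 to 17.7) in Natural and 3.89 CPM (3.61 to 4.19) in IVF, with 95% exact Poisson intervals that cover counting error only. Slc2a1 had a ratio of 1.77, with 0.227, 15.9 and 26.3 CPM for the lowest, median and highest Natural oocyte and 6.37, 27.1 and 36.5 CPM for IVF oocytes. The single oocytes of the groups overlapped for both genes. Ldhb had medians of 1996 CPM in Natural and 2484 CPM in IVF oocytes, with overlapping ranges. Hk1, Hk2 and Pfkm were below the mean of 5 CPM required of the genes in the background.

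In 12-week cumulus cells no member was called between IVF and Natural, where 0.00973% of 10280 genes were, and no member had an unadjusted p below 0.05, where 6.08% of genes had. DESeq2 called no member either. The groups overlapped for Slc2a1, and its values followed the style of the library name, which was a covariate in the fit. In one, IVF replicates 1 to 3 were at 247, 210.3 and 372 CPM and Natural replicates 3 to 5 at 143, 161 and 263 CPM, and in the other IVF replicates 4 and 5 were at 81.4 and 104 CPM and Natural replicates 1 and 2 at 122 and 106 CPM. Ldha was at 7049, 6655, 7086, 6692 and 9226 CPM in Natural and 8338, 8116, 7413, 5491 and 5612 CPM in IVF libraries. The lowest fold changes were those of the 3 phosphofructokinase subunits, at -0.42 for Pfkm, -0.38 for Pfkp and -0.33 for Pfkl, with adjusted p of 0.896, 0.844 and 0.874.

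Cumulus cells and oocytes at 12 weeks differed in all 10 members. In Natural females 9 members were higher in cumulus cells and Ldhb was lower, and IVF females gave the same 10 calls. Calls were common in this comparison, with 84.8% of 14719 genes called in Natural (39.5% higher and 45.3% lower) and 84.1% in IVF (38.2% higher and 45.9% lower). The median log2 difference of the members was 4.32 in Natural and 4.37 in IVF, against -0.27 and -0.38 for all genes. No member overlapped between the cell types, as was the case for 74.1% and 71.8% of genes. With library size in place of TMM normalization the median of all genes was 0.41 and 0.19, and no member changed its direction or call. Cell type, count table and cells per library cannot be told apart, and the style of the library name was not in this fit.

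The early steps, uptake and trapping of glucose, are given first. Slc2a1 was at 25.1, 28.2, 39.4, 34.7 and 31.9 CPM in Natural oocyte sets and 89.5, 81.4, 121, 136 and 213 CPM in Natural cumulus libraries, a log2 difference of 2.01 ± 0.32 (adjusted p = 6.05e-06). In IVF it was 2.297 ± 0.33 (adjusted p = 1.11e-06). Hk1 differed by 4.51 ± 0.44 in Natural and 4.56 ± 0.44 in IVF, from at most 3.12 CPM in any oocyte set, and Hk2 by 1.95 ± 0.26 and 1.86 ± 0.26. Of the phosphofructokinase subunits, Pfkp (4.99 and 5.15) and Pfkl (4.14 and 4.17) had wider differences than Pfkm (1.86 and 1.48). In the 5 donor sets with both oocytes and a cumulus library (2 Natural and 3 IVF), fitted with the set as a block, Pfkm was no longer called (1.21, adjusted p = 0.168, in Natural and 1.10, adjusted p = 0.136, in IVF).

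Further down the pathway, Aldoa was at 114, 78.6, 151, 131 and 175 CPM in Natural oocyte sets and 5870.2, 6241, 5196, 5596 and 7037 CPM in Natural cumulus libraries (5.53 ± 0.32, and 5.998 ± 0.33 in IVF). Pkm differed by 5.49 ± 0.31 in Natural and 5.51 ± 0.31 in IVF. Ldha had the widest positive difference, with 50.2, 14.2, 54.2, 59.9 and 125 CPM in Natural oocyte sets and 5186, 5119, 6028, 5667 and 7489.7 CPM in cumulus libraries (6.60 ± 0.55, and 6.86 ± 0.56 in IVF). Ldhb went the other way, from 1278, 892, 1128, 926 and 1026 CPM in Natural oocyte sets to 6.39, 8.11, 13.4, 8.78 and 8.71 CPM in cumulus libraries (-6.85 ± 0.37, and -6.56 ± 0.36 in IVF). All 10 members stayed called in both groups when any 1 library was left out. The interaction with conception was called for no member, where 0.0204% of genes were called, and none had an unadjusted p below 0.05, where 5.82% of genes had. DESeq2 called no member for it.

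**Figure D4:**
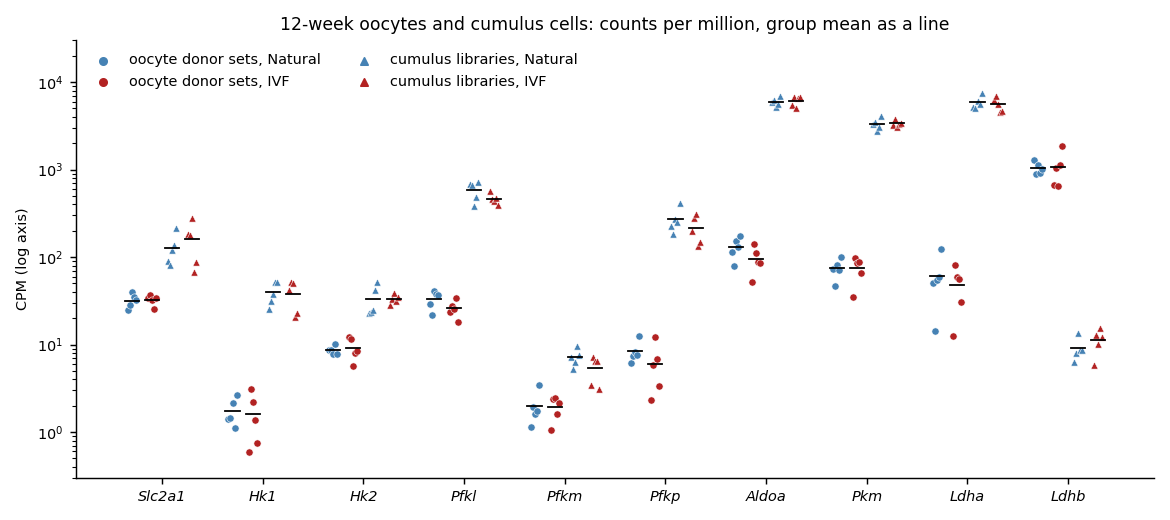
CPM (vertical, log axis) of the 10 members in 12-week oocyte donor sets (circles) and cumulus libraries (triangles), Natural in blue and IVF in red, with the group mean as a line. Natural Ldha is at 14.2 to 125 CPM in oocytes and 5119 to 7489.7 CPM in cumulus cells, and Natural Ldhb at 892 to 1278 CPM and 6.39 to 13.4 CPM.

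The labelled cells carried their defining markers. Oocyte markers summed to 25667 to 32968 CPM in Natural oocyte sets and 0.662 to 19.4 CPM in Natural cumulus libraries, and granulosa and cumulus markers to 97.1 to 139 CPM and 1156 to 2300.1 CPM. Ldha in single Natural oocytes had a median of 12.3 CPM and a highest value of 357 CPM, and the part of adhering cumulus RNA in the members' oocyte values was not tested.

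Genes beyond the members differed between the cell types as well, where 84.8% of all genes were called in Natural and 84.1% in IVF. Values are the log2 difference in Natural and in IVF. Of 13 other glycolytic enzymes 12 were higher in Natural cumulus cells and 11 in IVF, among them Eno1 (6.68 and 7.05), whereas Bpgm, which makes 2,3-bisphosphoglycerate, was lower (-10.72 and -10.52). The lactate exporter Slc16a3 (5.54 and 5.27) and the chaperones Bsg (4.999 and 5.03) and Emb (3.29 and 3.23) were higher, and Slc16a1 was lower (-1.98 and -2.06). Of 6 hexose transporters tested, Slc2a8 was higher (3.74 and 3.94) and 4 were lower, among them Slc2a12 (-4.74 and -5.24) and Slc2a13 (-2.40 and -2.10). Of 14 genes for pyruvate entry into mitochondria, 5 were higher and 4 lower in Natural cumulus cells and 5 higher and 6 lower in IVF. Among them Mpc2 was higher (3.16 and 3.88) and Pdhx, a structural subunit of pyruvate dehydrogenase, was lower (-4.23 and -3.82). Pfkfb4 was higher (4.57 and 4.98) and Tigar, which breaks down fructose 2,6-bisphosphate, was lower (-3.37 and -3.86). Txnip, which restrains glucose uptake, was lower (-7.67 and -8.07), and Myc (6.02 and 7.71) and Vegfa (4.52 and 5.80) were higher. In the pentose phosphate pathway Pgls (5.13 and 5.29) and Tkt (3.73 and 3.90) were higher and G6pdx (-3.27 and -3.51) was lower. Aldoart1 was counted at most 6 times in any oocyte set and is a copy of Aldoa, so that reads could be split between them.

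Because several steps are served by paralogous subunits, their balance within each library was compared as a log2 ratio of counts, which does not depend on scaling. Of 32 comparisons 6 passed an exact two-sided permutation test after adjustment, all between cumulus cells and oocytes. Each had p = 0.00794, the smallest that 5 against 5 allows in this exact test, and adjusted p = 0.0423. Ldha to Ldhb was 9.36 ± 0.37 (SD, n = 5) in Natural cumulus cells and -4.40 ± 1.07 in Natural oocytes, and 8.996 ± 0.69 and -4.62 ± 1.16 in IVF. Hk2 to Hk1 was -0.29 ± 0.24 in Natural cumulus cells and 2.34 ± 0.65 in Natural oocytes, and -0.07 ± 0.62 and 2.72 ± 1.20 in IVF. Pfkm to Pfkl was -6.33 ± 0.53 in Natural cumulus cells and -4.13 ± 0.63 in Natural oocytes, and -6.49 ± 0.61 and -3.77 ± 0.64 in IVF. Pfkp to Pfkl differed by 0.84 and 1.09 between the cell types and was not called (adjusted p = 0.152 and 0.141 in the exact permutation test). Leaving out any 1 IVF cumulus library left none of the 6 called (adjusted p from 0.0508 to 0.0726), and leaving out any 1 other cumulus library or oocyte set changed none of the 6 calls.

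No balance was called between IVF and Natural. In 12-week ovaries Pfkm to Pfkl was -0.84 ± 0.17 (n = 5) in IVF and -1.51 ± 0.40 (n = 4) in Natural (exact permutation p = 0.0159, adjusted p = 0.0726), and at E18.5 it was -1.04 ± 0.33 (n = 6) and -1.65 ± 0.17 (n = 4) (exact permutation p = 0.0286, adjusted p = 0.114). Ldha to Ldhb had group means from 1.04 to 1.54 in ovaries of the 3 ages. The genes differ in length, so the sign of a ratio of counts does not order them per molecule.

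**Figure D5:**
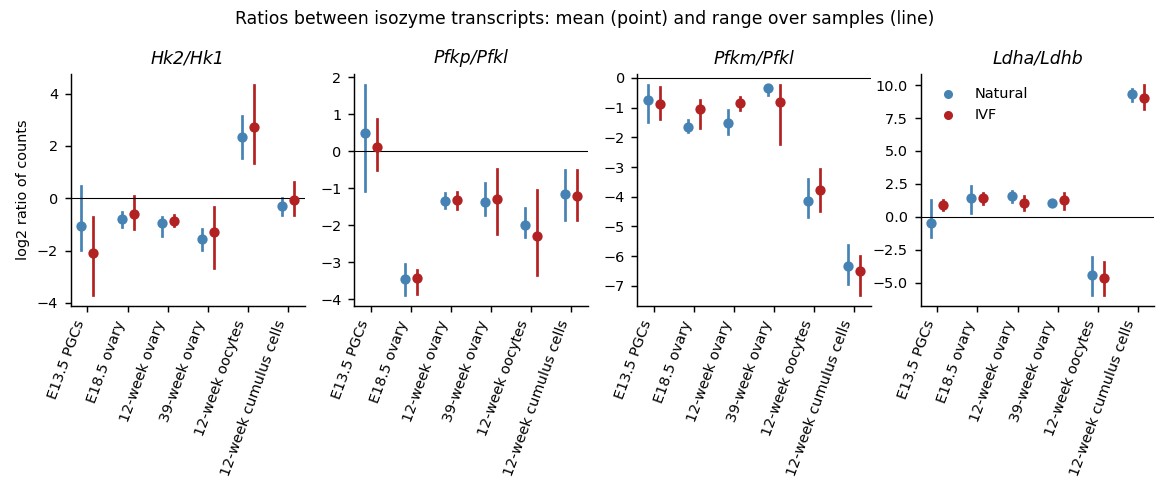
Log2 ratio of counts for 4 isozyme pairs (vertical axes, a scale for each panel) in 6 experiments, with the mean as a point and the range over samples as a line, Natural in blue and IVF in red. Ldha over Ldhb sits at 9.36 and 8.996 in Natural and IVF cumulus cells and at -4.40 and -4.62 in oocytes.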

How the data were processed

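Per the study's methods, the authors trimmed reads, aligned them to the mouse genome (mm10) with STAR and counted them by gene with featureCounts; the submitters' processing notes name Trimmomatic 0.32, STAR 2.3.0e, featureCounts 1.5.0 and DESeq2. The deposited values are raw counts per gene and library, used as deposited. Of the counts from 1 to 20, odd values made up 20.9% to 33.3% by table, and whether both mates of a pair were counted was not tested. Gene names turned into numbers (27 in each ovary table) could not be matched. Ovary libraries were stranded poly(A) libraries, and low-input libraries followed a modified SMART-seq and Nextera XT protocol, which does not mark strand. Whether counting used strand is not given in the sources used here. Cumulus cells at 39 weeks were not analysed here.

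Genes were filtered with filterByExpr, scaled by TMM and tested two-sided with edgeR 4.0.16 (R 4.3.3, limma 3.58.1) by its quasi-likelihood test at a Benjamini-Hochberg adjusted p below 0.05 over all genes tested. IVF was compared with Natural in each table, the ovary ages were fitted together, and summed 12-week oocyte sets were fitted with the cumulus libraries, whose own comparison had the library set as a covariate. Donor sets were read from library names. Log2 CPM used a prior count of 2, and isozyme ratios had 0.5 added to each count. CPM per kb used the exon length of GENCODE gene models. Promoter windows came from RefSeq (GRCm38.p6), where all 10 members were matched by gene name. Alternatives were DESeq2 1.42.0, other scalings and filters, a replicate block and leaving out each library. The scripts were tested on simulated data. The members and lists were chosen with earlier results of these data known. Besides the 10 members, the text names genes of the other pathway lists that were called (at most 4 a list and comparison, by size) and the 5 genes most like Slc2a1.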

Additional observations from a re-analysis of the deposited data

Results flagged for a closer look

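Several values stood apart within their group, with a gap to the nearest library past Dixon's critical value. This was so in 12 of the 120 gene and group combinations, where chance alone gives about 1 in 20. In E18.5 IVF ovaries, replicate 3 was the high value for Aldoa at 654 CPM, Hk1 at 95.3 CPM, Hk2 at 101 CPM, Pfkl at 367 CPM, Pfkp at 25.3 CPM and Pkm at 864 CPM. In 39-week IVF ovaries, replicate 1 was the high value for Hk1 at 177 CPM and Pfkl at 384 CPM. In IVF PGCs, replicate 4 held 169 CPM of Pfkp. In cumulus cells, IVF replicate 3 held 51.3 CPM of Hk2, Natural replicate 5 held 9226 CPM of Ldha and Natural replicate 3 held 15.7 CPM of Ldhb.

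The effect of IVF differed between ovary ages by edgeR's test of the interaction for 5 members. From 12 to 39 weeks the log2 fold change of IVF over Natural moved by 1.57 for Slc2a1 and by -0.59 for Pfkm, where 2.71% of 19724 genes were called. Neither gene was called without 12-week IVF replicate 3 or without 12-week Natural replicate 3. From E18.5 to 39 weeks it moved by 1.56 for Slc2a1, 1.40 for Ldha, 1.12 for Ldhb and 0.86 for Aldoa, where 7.95% of genes were called.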

How the results depend on the processing

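Between cumulus cells and oocytes, every member kept its direction and call under each alternative run, except Pfkm in the matched donor sets. With DESeq2, 5 members were called at E18.5, 1 in 12-week ovaries and 2 in 39-week ovaries. With library size only, 3 members were called in IVF ovaries from E18.5 to 12 weeks and 0 from 12 to 39 weeks, where Ldha was -0.021. Of 19724 genes, 5180 were called higher and 6304 lower at the first of these steps, and 269 and 697 at the second. With only the 12-week and 39-week ovaries in the fit, 0 members were called for the interaction from 12 to 39 weeks. With only 39-week oocytes of at least 5000000 counts, 2 members were past a ratio of 2. With each 39-week oocyte left out in turn, an alternative chosen after seeing the data, this count ranged from 0 (without Natural oocyte 9, which held the most Pfkp) to 3 (without Natural oocyte 8, with Hk1 and Ldha added). These counts set no minimum level, so they can include members below the mean of 5 CPM required of the background. Hk1, for one, had a mean of 0.509 CPM in Natural and 0.656 CPM in IVF oocytes. The share of all genes past a ratio of 2 is not given for these settings. The causes were not tested.

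With 1 library left out in turn, members called ranged from 0 to 7 at E18.5, where 313 to 1973 of all genes were. In IVF ovaries from 12 to 39 weeks they ranged from 0 to 2, where 539 to 2606 of all genes were called. For the interaction from 12 to 39 weeks they ranged from 0 to 3, where 80 to 1111 genes were called. For that from E18.5 to 39 weeks they ranged from 4 to 7, where 856 to 1864 genes were. The isozyme differences called ranged from 0 to 7, the 7th being Pfkm to Pfkl at E18.5 without IVF replicate 3. In 39-week ovaries Hk1 ranged from -0.045 to 0.27 and Pfkl from -0.043 to 0.55. In IVF ovaries from 12 to 39 weeks Slc2a1 ranged from -0.028 to 0.40 and Ldha from -0.0896 to 0.20.

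Samples with the same replicate number did not deviate together in every pair of any comparison (lowest correlations from -0.36 to -0.01). The highest correlations ran from 0.01 at E18.5 to 0.40 in 39-week ovaries and 0.54 in PGCs. Natural samples correlated best with their own number in 3 of 4 pairs in PGCs and 3 of 5 in 39-week ovaries. This was so in 0 of 4 pairs at E18.5, 1 of 4 in 12-week ovaries and 0 of 5 in cumulus cells. Whether a shared number marks a litter or batch was not tested. With the replicate number as a replicate block, 0 members were called at E18.5 (Aldoa -0.42, adjusted p = 0.235, and Ldha -0.53, adjusted p = 0.202) and 1 for the interaction from 12 to 39 weeks, since Pfkm was no longer called. Over all genes the block moved the calls from 891 to 3 at E18.5, from 1 to 0 at 12 weeks, from 45 to 24 at 39 weeks, from 1 to 24 in cumulus cells, and from 62 to 0, 534 to 104 and 1568 to 1018 for the interactions.

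Over all genes, DESeq2 called 1924 at E18.5, 656 at 12 weeks, 1229 at 39 weeks, 46 in oocytes, 30 in cumulus cells, 2017 in IVF ovaries from 12 to 39 weeks (edgeR 1220), 347, 1535 and 2476 for the interactions, and 9 for the interaction of cell type (edgeR 3). Without a filter on low counts, edgeR called 9 genes at 12 weeks, 28 at 39 weeks, 19 in oocytes (4 with the filter) and 104 in cumulus cells. With at least 10 counts in every library it called 0, 96 and 2 in 12-week ovaries, 39-week ovaries and cumulus cells, 12 for the first interaction, and 5672 and 5665 between the cell types (12483 and 12379 otherwise). Without the library set 0 genes were called in cumulus cells, only the 12-week and 39-week ovaries gave 3 for the second interaction, matched donor sets gave 1 for that of cell type, and the first interaction had 29 with RLE factors and 1 (lower) with library size only in place of 54 higher and 8 lower. Library size only moved the split of higher to lower calls from 1980 and 2287 to 1257 and 3001 in Natural ovaries from 12 to 39 weeks (median of all genes -0.12), from 834 and 386 to 269 and 697 in IVF ovaries, and from 1006 and 562 to 616 and 651 for the interaction from E18.5 to 39 weeks.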
